A study of Mus musculus with 8 samples.

Results

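The Usp17l genes encode closely related ubiquitin-specific proteases of the mouse. The 5 genes followed here, Usp17la, Usp17lb, Usp17lc, Usp17ld and Usp17le, were taken by their symbols from a table of 55573 genes. All 5 had counts in every one of the 8 libraries, and all 5 passed the filter on low counts that left 20608 genes for testing. A related row, the pseudogene Usp17le-ps, held 4 counts in 1 library and was not tested.

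Ubiquitin-specific proteases are cysteine proteases that cut ubiquitin from other proteins and so reverse the marking that sends many proteins to the proteasome. The mouse Usp17l genes were first described as DUB genes in blood cell lines, where cytokines switch some of them on as immediate early genes: Usp17la is also known as Dub1, Usp17lb as Dub1a, Usp17lc as Dub2, Usp17ld as Dub2a and Usp17le as Dub3. Members are also known among the genes transcribed in the embryo at the 2-cell stage and in the rare cultured stem cells that resemble it, next to the transcription factor gene Duxf3 (Dux), the Zscan4 genes and Zfp352.

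Polyadenylated RNA of mouse embryonic stem cells was sequenced in 4 groups of 2 libraries. The group mESC was wild type and untreated, and its culture is given as either of 2 media, N2B27 with LIF and 2 inhibitors or KnockOut medium with serum replacement and LIF. The group 2C::GFP+ was untreated and has its own name as its genotype label, after the fluorescent reporter by which 2-cell-like cells are seen. Its medium is not named apart from that of mESC, and both media of the growth protocol hold 10 ng/ml LIF. The medium may thus differ between mESC and the 2C::GFP+ groups, and its part could not be told apart from that of genotype. The group 2C::GFP+/SGC had the same genotype and was kept in KnockOut medium with 10 ng/ml LIF and 2 µM SGC0946, an inhibitor of the histone methyltransferase DOT1L. The group 2C::GFP+/SA had that genotype too, and received 2 µM SGC0946 and 2 µM AS8351, an inhibitor described as acting on the histone demethylase KDM5B, in KnockOut medium with 10 ng/ml IL6/sIL-6R in the place of LIF. AS8351 and the change of cytokine came together, so their parts cannot be told apart. Sorting for the reporter, the number of clones and separate cultures for the replicates are not named in the labels, so the p-values measure only the spread between these libraries. For untreated 2C::GFP+, the 2 columns named after serum replacement were taken by elimination, on which every comparison with that group rests.

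All 5 genes lie on chromosome 7 in GRCm38 (GENCODE M21), in 2 neighbourhoods. Usp17ld (ENSMUSG00000057321, 103249737 to 103252505, minus strand) and Usp17lc (ENSMUSG00000058976, 103415072 to 103419880, plus strand) form the first. Usp17le (ENSMUSG00000043073, 104768049 to 104777470, minus strand), Usp17lb (ENSMUSG00000062369, 104840257 to 104842603, minus strand) and Usp17la (ENSMUSG00000054568, 104857009 to 104862667, plus strand) form the second. The longest coding transcript had 2 exons in Usp17lb, Usp17lc and Usp17ld, 3 in Usp17la and 4 in Usp17le. The coding sequences were 1404 bases long in Usp17lb, 1578 in Usp17la, 1626 in Usp17le and 1635 in both Usp17lc and Usp17ld.

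Identity between the coding sequences ran from 90.53% for Usp17lb with Usp17le to 98.41% for Usp17lc with Usp17ld. Of 1404 aligned positions without a gap, 85.9% were the same in all 5 genes, and the longest stretch without a difference was 63 bases. The same 120-base window of the coding sequence is shown for each gene, because it tells where reads from the members differ. It holds 14 differing positions, the median over windows of that length, and these are in capitals. It covers coding bases 758 to 877 in each gene but Usp17le, where it covers 860 to 979.
Usp17la: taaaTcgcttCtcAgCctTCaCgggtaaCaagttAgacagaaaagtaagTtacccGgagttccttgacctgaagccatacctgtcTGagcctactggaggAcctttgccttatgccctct
Usp17lb: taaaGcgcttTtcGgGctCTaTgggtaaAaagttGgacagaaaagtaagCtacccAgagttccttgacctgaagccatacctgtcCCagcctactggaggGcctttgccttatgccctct
Usp17lc: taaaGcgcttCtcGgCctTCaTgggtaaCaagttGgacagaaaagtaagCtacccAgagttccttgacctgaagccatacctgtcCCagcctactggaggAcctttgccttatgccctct
Usp17ld: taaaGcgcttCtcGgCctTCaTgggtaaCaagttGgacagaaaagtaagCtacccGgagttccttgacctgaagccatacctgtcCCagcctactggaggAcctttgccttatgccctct
Usp17le: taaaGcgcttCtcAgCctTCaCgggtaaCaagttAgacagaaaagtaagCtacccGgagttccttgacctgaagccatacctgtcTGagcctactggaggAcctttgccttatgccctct

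How far a read can be placed was read from the annotated transcripts. Of all distinct stretches of 31 bases, 69% of those in Usp17lb and 61.1% of those in Usp17la occurred in no other gene. The share was 50.9% in Usp17le, 39.3% in Usp17lc and 34.3% in Usp17ld. With stretches of 100 bases it was 96.2% in Usp17la, 91.8% in Usp17le and 89.7% in Usp17lb, but 67.7% in Usp17lc and 60.5% in Usp17ld. How the authors treated reads that fit more than 1 place is not given in the sources used here, so the split among members, and between Usp17lc and Usp17ld most of all, is uncertain. The sum over the 5 genes is therefore given beside them. It would not restore reads that fit more than 1 place if these were left out of the counts. Outside the 5 genes, 272 genes shared such a 31-base stretch with them. This took in 16% of the stretches in Usp17ld to 25.1% of those in Usp17le. With 100 bases it was 0% in Usp17lc and Usp17ld and at most 4.74%, in Usp17le. The predicted pseudogene Gm5053 shared most, 500 of the 31-base stretches. The sum does not account for reads common to members and these other genes.

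The upstream sequences were alike as well. RefSeq promoters (GRCm38.p6) were matched for 4 of the 5 genes, Usp17la, Usp17lb, Usp17lc and Usp17ld, and were 89.3% to 97.3% identical in pairs. The stretches below are shown because the 4 genes moved together. They carry a 100-base block that is alike but not identical in the 4 genes. It ends 37 bases before the start in Usp17la, 22 in Usp17lb, 79 in Usp17lc and 101 in Usp17ld. Capitals mark a CACC box, the kind of site bound by Kruppel-like factors, and the letters TATAAA. These letters begin 31 bases before the start in Usp17lb, 88 in Usp17lc and 110 in Usp17ld. In Usp17lc the block lies within the gene body, upstream of its RefSeq start.
Usp17la (chr7:104856880-104856979, plus strand): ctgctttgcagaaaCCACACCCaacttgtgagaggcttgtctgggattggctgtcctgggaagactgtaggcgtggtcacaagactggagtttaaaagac
Usp17lb (chr7:104842605-104842704, minus strand): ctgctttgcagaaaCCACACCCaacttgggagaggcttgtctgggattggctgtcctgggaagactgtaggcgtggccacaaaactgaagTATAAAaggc
Usp17lc (chr7:103416518-103416617, plus strand): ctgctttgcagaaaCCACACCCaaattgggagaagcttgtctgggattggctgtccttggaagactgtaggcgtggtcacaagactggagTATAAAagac
Usp17ld (chr7:103252606-103252705, minus strand): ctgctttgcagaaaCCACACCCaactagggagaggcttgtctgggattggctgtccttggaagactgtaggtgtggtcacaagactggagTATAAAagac

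A few motifs, chosen after the sequences were seen, were searched on both strands of the 250 bases before the start of 32851 RefSeq promoters. CCACACCC was in 4 of the 4 Usp17l promoters and in 3.2% of all promoters. TATAAA was in 3 of the 4 and in 12.4% of all. TTCNNNGAA, the pattern bound by STAT factors, was in 3 of the 4 and in 7.02% of all. The site described for DUX, searched as a fixed pattern with 2 free bases at its centre, was in 0 of the 4 and in 0.177% of all, which says only that these letters are not in this window. A match is a description of letters and not of binding, and the promoters are copies of each other, so they are not separate instances.

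The family had a few CPM in mESC and its mean level was higher in each group from there to 2C::GFP+/SA. In the step made by SGC0946 alone 0 of the 5 members passed the test. In the step from 2C::GFP+/SGC to 2C::GFP+/SA 1 of the 5 passed, and the sum was not tested in any step. The 5 genes took 264 and 164 counts from the mESC libraries (replicate 1, then replicate 2, here and below), 30650 and 4958 from the 2C::GFP+ libraries, 91294 and 10011 with SGC0946 alone and 361365 and 21038 with the full cocktail of 2C::GFP+/SA. On the CPM scale (counts relative to a common library total, after TMM scaling), the sum was 1.92 and 8.42 for mESC, 256 and 295 for 2C::GFP+, 654 and 680.4 for 2C::GFP+/SGC and 3960 and 1621 for 2C::GFP+/SA. No library of a group reached into the range of the next. The rising order, with mESC lowest, then untreated 2C::GFP+, then 2C::GFP+/SGC and last 2C::GFP+/SA, held for the sum and for each member, and by the ratio of group means the smallest step was that between 2C::GFP+ and 2C::GFP+/SGC. Between the replicate 2 libraries alone, the step from 2C::GFP+/SGC to 2C::GFP+/SA was the smaller one for Usp17la (2.05-fold against 2.39-fold) and Usp17lb (1.96-fold against 2.36-fold). In 2C::GFP+/SA the family held 0.373% (95% exact binomial interval 0.372% to 0.374%) and 0.171% (0.169% to 0.173%) of all counts. In mESC it held 0.000181% (0.00016% to 0.000204%) and 0.000839% (0.000716% to 0.000978%). These intervals cover counting error only.

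**Figure D1:**
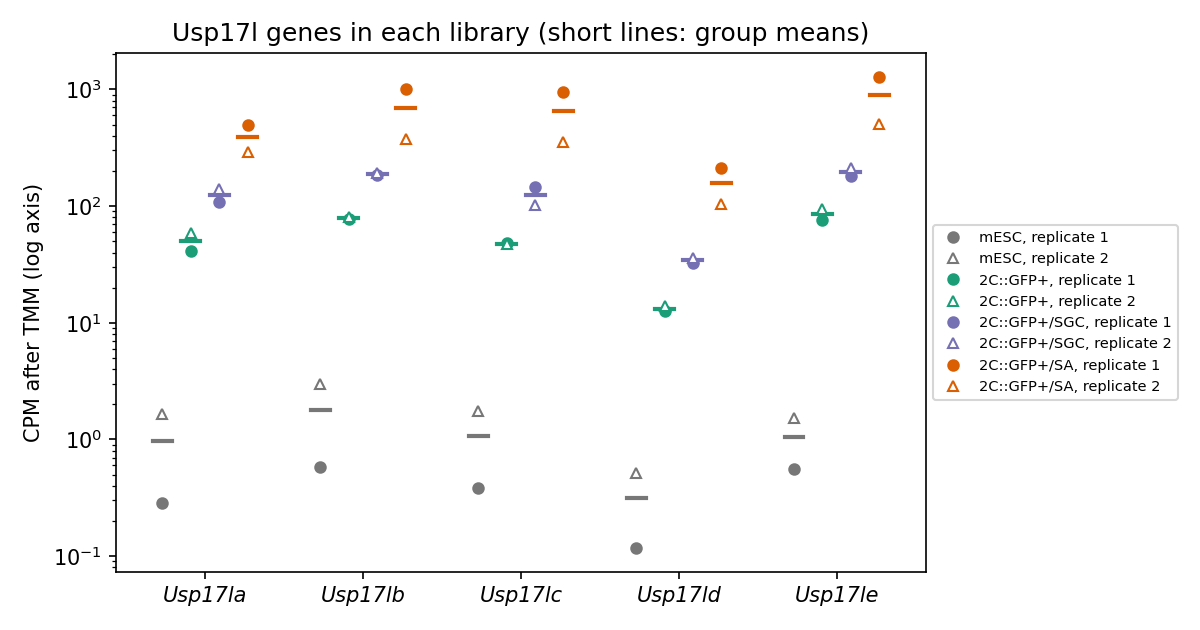
Level of each Usp17l gene in CPM after TMM (log axis) in the 8 libraries, with filled circles for replicate 1, open triangles for replicate 2 and short lines for the mean of the group. The 4 groups form separate steps in all 5 genes, and the replicates lie farthest apart in mESC and 2C::GFP+/SA.

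Library totals bear on these values. Replicate 1 held between 96895327 and 145810034 counts and replicate 2 between 12299931 and 19544870, so the replicate numbers also mark depth, 7.46 to 9.617 times greater in replicate 1. A level of 3 counts corresponded to 0.0215 to 0.231 CPM, and the lowest member value, 10 counts of Usp17ld in mESC replicate 2, lay above it. The summed level of 10 genes of the 2-cell-like state was 2.88 to 7.19, 537 to 692, 1314 to 1352 and 2836 to 7146 CPM in the 4 groups in that order, with Gm6763 alone at 0 in all groups. That of 7 pluripotency genes, none at 0, went from 4456 to 4959 CPM in mESC to 3104 to 3683 in 2C::GFP+/SA, so the markers of the labelled cell type were present in every group. The 7 feeder fibroblast genes summed to 4.28 to 6.93, 9.21 to 9.51, 14.3 to 15.2 and 27.6 to 34.3 CPM, with Postn and Dcn at 0 in mESC, Postn and Lum in 2C::GFP+, Postn in 2C::GFP+/SGC and none in 2C::GFP+/SA. The 12 blood cell genes summed to 1.13 to 1.92, 2.73 to 4.31, 4.08 to 5.29 and 4.47 to 5.31 CPM, with 4, 4, 3 and 2 of them at 0, Adgre1 and Ly6g in every group. The feeder sum was higher in each group in that order, at a level like that of the family in mESC and far below it in the other groups. The blood sum was higher in the 2C::GFP+ groups than in mESC, but its ranges in 2C::GFP+/SGC and 2C::GFP+/SA overlapped. The part of both in the family's values was not tested. In bulk RNA, more cells of a kind and more RNA per cell cannot be told apart.

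Between genes, levels were compared in TPM, which divides by transcript length. With the full cocktail, Usp17le had 1855 and 906 TPM and Usp17lb 1837 and 865 TPM, and they did not differ beyond their spread. Usp17lc followed with 1116 and 517 TPM, Usp17la with 538 and 392 TPM and Usp17ld with 307 and 187 TPM. In each 2C::GFP+/SA library the order was the same, although the ranges of neighbouring genes overlapped between the 2 libraries except for those of Usp17ld and Usp17la. Among all 55573 genes in replicate 1 of 2C::GFP+/SA, Usp17le ranked 66 and Usp17lb 67 by TPM, and in replicate 2 they ranked 125 and 134. Usp17ld, the lowest member by these values, ranked 491 and 954. The order of the members also depends on how reads common to several of them were counted, which is not given. Usp17ld and Usp17lc had the smallest shares of 100-base stretches found in no other gene, 60.5% and 67.7%. In mESC, Usp17le ranked 14599 and 11829 and Usp17lb 13771 and 9835.

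Usp17la, the gene first named Dub1, had 0.284 and 1.64 CPM in mESC, 41.1 and 59 in untreated 2C::GFP+, 109 and 140.9 with SGC0946, and 499.7 and 289.5 with the full cocktail. Usp17lb, its neighbour on the opposite strand, had 0.583 and 2.98, 77.1 and 81, 186 and 191, and 1002 and 375 CPM in the same order. Usp17le, the Dub3 gene, had 0.554 and 1.54, 76.7 and 93.7, 179.9 and 211, and 1288 and 500.4 CPM. In these 3 genes replicate 2 was the higher library in mESC, 2C::GFP+ and 2C::GFP+/SGC, and replicate 1 in 2C::GFP+/SA.

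Usp17lc, the Dub2 gene of the other neighbourhood, had 0.386 and 1.75 CPM in mESC, 48.3 and 46.9 in untreated 2C::GFP+, 146 and 102 with SGC0946, and 957 and 352 with the full cocktail. Usp17ld, the closest relative of Usp17lc, had 0.117 and 0.513, 12.5 and 13.9, 32.6 and 35.9, and 213 and 103 CPM in the same order. Usp17lc was the only member whose replicate 1 exceeded replicate 2 in both 2C::GFP+ and 2C::GFP+/SGC. No member's groups overlapped in any of the 5 comparisons, and among all tested genes the first group lay wholly above the second in 33.9% for 2C::GFP+ against mESC, 24.3% for 2C::GFP+/SGC against 2C::GFP+, 32.4% for 2C::GFP+/SA against 2C::GFP+, 28.7% for 2C::GFP+/SA against 2C::GFP+/SGC and 37.7% for 2C::GFP+/SA against mESC.

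The first comparison sets untreated 2C::GFP+ cells against wild-type cells, which differ in genotype and may differ in medium. All 5 members were higher in 2C::GFP+ by the quasi-likelihood test of edgeR with Benjamini-Hochberg adjustment over 20608 genes (called where the adjusted p is under 0.05), against 24.3% of all genes called either way and 15.2% called higher. The log2 fold changes ran from 5.99 ± 1.00 (SE, adjusted p = 0.0168) for Usp17lb to 6.75 ± 0.78 (adjusted p = 0.00414) for Usp17le. Usp17ld had the smallest adjusted p, 0.00147, with 6.17 ± 0.67. Usp17la rose by 6.43 ± 0.87 (adjusted p = 0.00783) and Usp17lc by 6.09 ± 0.96 (adjusted p = 0.0135). The median over the members was 6.17, and over all tested genes 0.04.

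The size of that rise depended on the library. The summed level rose 53.2-fold from the mean of mESC to the mean of 2C::GFP+, 133-fold between the replicate 1 libraries and 35-fold between the replicate 2 libraries, and the 2 mESC libraries themselves differed 4.38-fold. The fitted folds lay above the ratios of mean CPM, for example 86.3-fold against 52-fold for Usp17la. Without replicate 2 of 2C::GFP+ 2 of the 5 members were called, and without replicate 2 of 2C::GFP+/SGC 3. The direction held in each of these fits.

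SGC0946 alone was the next comparison. The 5 members were 2.30-fold to 2.60-fold higher in 2C::GFP+/SGC than in 2C::GFP+, and 0 of the 5 passed the test, as 0% of all 20608 genes did. The log2 fold changes with their 95% intervals were 1.33 (-0.27 to 2.92) for Usp17la, 1.26 (-0.72 to 3.24) for Usp17lb, 1.38 (-0.44 to 3.20) for Usp17lc, 1.38 (0.32 to 2.43) for Usp17ld and 1.2 (-0.24 to 2.64) for Usp17le. The edgeR adjusted p-values ran from 0.406 to 0.647. At an unadjusted p under 0.05 there were 1 member, Usp17ld, and 2037 genes in all, and DESeq2 called 288 genes and 0 members. Fitted on the 4 libraries of these 2 groups only, all 5 members passed, where 326 genes were called. The replicates of both groups were close: the sum was 2.56 times higher between the replicate 1 libraries and 2.31 times between those of replicate 2.

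The full cocktail was compared with untreated 2C::GFP+ cells. All 5 members were higher in 2C::GFP+/SA, against 28.7% of all genes called either way and 14.9% called higher. Usp17lc changed most, by 3.78 ± 0.75 (log2, SE, edgeR adjusted p = 0.0236), and Usp17la least, by 2.99 ± 0.64 (adjusted p = 0.0283). Usp17ld rose by 3.59 ± 0.46 (adjusted p = 0.00266), Usp17le by 3.40 ± 0.60 (adjusted p = 0.0148) and Usp17lb by 3.13 ± 0.79 (adjusted p = 0.0479). The median was 3.40, against 0.01 over all tested genes. The sum was 15.5-fold higher within replicate 1 and 5.50-fold within replicate 2. The number of members called was 0 without 2C::GFP+ replicate 2, 1 without 2C::GFP+ replicate 1 or without 2C::GFP+/SGC replicate 2, 3 without 1 or the other library of 2C::GFP+/SA, 3 with a replicate block and 2 with no filter on low counts.

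The contrast of 2C::GFP+/SA with 2C::GFP+/SGC holds SGC0946 constant, adds AS8351 and exchanges LIF for IL6/sIL-6R. The summed level was 4.18-fold higher in 2C::GFP+/SA than in 2C::GFP+/SGC, 6.06-fold within replicate 1 and 2.38-fold within replicate 2. By edgeR 1 of the 5 members was called, Usp17ld, by 2.22 ± 0.43 (log2, SE, adjusted p = 0.0216), against 16.1% of all genes called either way and 7.92% called higher. The others had 2.40 ± 0.70 (Usp17lc, adjusted p = 0.0976), 2.20 ± 0.57 (Usp17le, adjusted p = 0.0683), 1.87 ± 0.75 (Usp17lb, adjusted p = 0.191) and 1.66 ± 0.61 (Usp17la, adjusted p = 0.153). The fold of Usp17ld lay among those of the others, while its variation between replicates, a biological coefficient of 34.3%, was the smallest of the 5. The other members had 42.1% to 57.1%, and the trend over all genes at their level was 12.6% to 13.6%. That 1 gene passed does not show that it differs from the other members. The count was 3 with DESeq2, 4 with limma on log2(TPM + 1), and 0 with a replicate block (Usp17ld adjusted p = 0.0538). Usp17ld was not called without 2C::GFP+ replicate 2, 2C::GFP+/SGC replicate 1 or 2C::GFP+/SGC replicate 2 (adjusted p = 0.119 to 0.238).

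Over the whole distance, from mESC to 2C::GFP+/SA, all 5 members were called higher, against 45.1% of all genes called either way and 25% called higher. The log2 fold changes ran from 9.11 ± 1.10 (SE, edgeR adjusted p = 0.003) for Usp17lb to 10.15 ± 0.85 (adjusted p = 0.00065) for Usp17le, and the ratio of mean summed levels was 539.6-fold. This count was 5 whichever library was left out. It shares its libraries with the comparisons above, so it is not separate evidence.

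**Figure D2:**
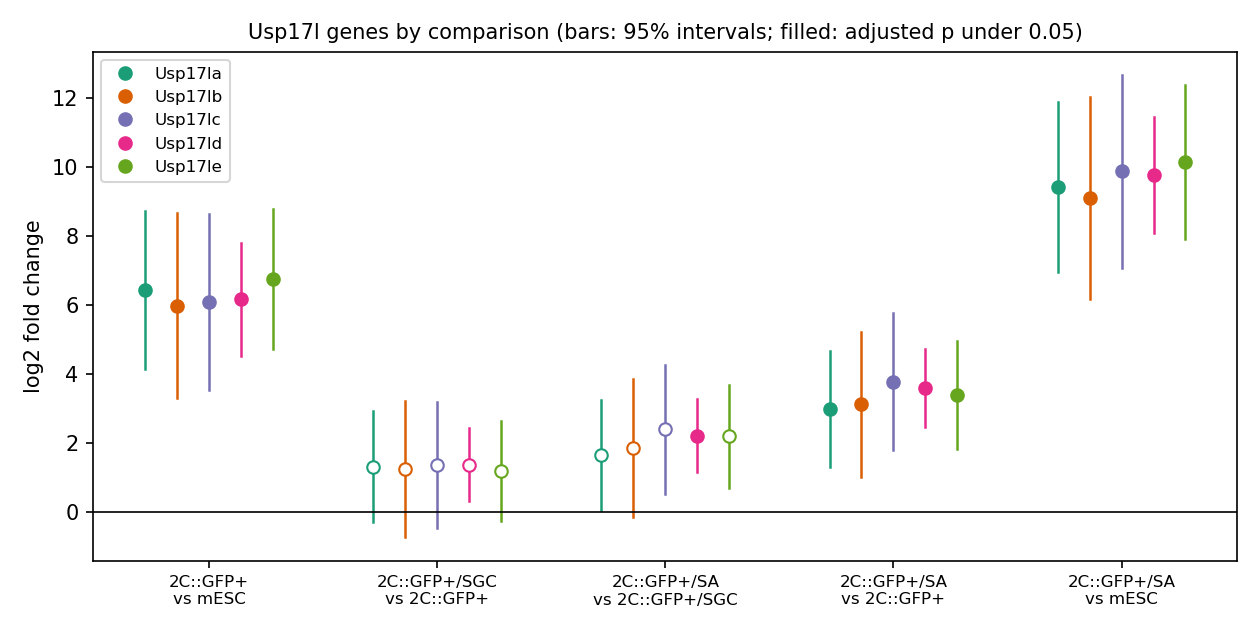
Log2 fold change of each Usp17l gene in the 5 comparisons, with 95% intervals as bars and filled points where the adjusted p was under 0.05. Every point lies above 0, none is filled for SGC0946 alone, and for 2C::GFP+/SA against 2C::GFP+/SGC only Usp17ld is filled.

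The members moved nearly in step, but their shares were not constant. Usp17le gave the largest part of the family's counts in 4 of the 8 libraries and Usp17lb in the other 4; that of Usp17le lay, between 18.3% and 32.5% over all of them, and Usp17ld the smallest in each, 4.72% to 6.37%. The share of Usp17la was 14.8% and 19.5%, 16.1% and 20%, 16.7% and 20.7%, and 12.6% and 17.9% in the groups in rising order, higher in replicate 2 of each group. Usp17lb went from 30.3% and 35.4% in mESC, where it led, to 25.3% and 23.1% in 2C::GFP+/SA, below every other library. The share of Usp17lc was 20.1% and 20.7% in mESC, 18.9% and 15.9% in 2C::GFP+, 22.3% and 14.9% with SGC0946 and 24.2% and 21.7% with the full cocktail, with no single direction. These differences were not tested, and a share also moves with how reads common to several members were placed. Over the 8 libraries the Pearson correlation between members on log2 CPM was 0.9931 (Usp17la with Usp17lc) to 0.9984 (Usp17lc with Usp17ld), a description of libraries that share groups and, for the members, reads.

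**Figure D3:**
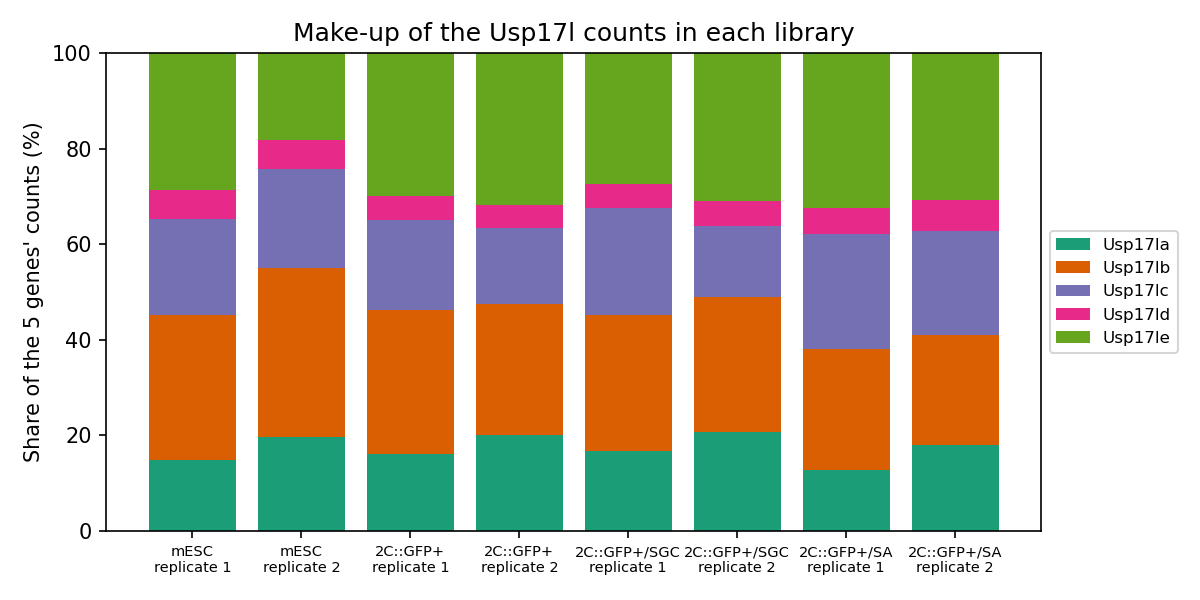
Share of each Usp17l gene in the counts of the 5 genes (percent, stacked to the whole) in each library. Usp17ld is the thinnest band throughout at 4.72% to 6.37%, and Usp17la is wider in replicate 2 than in replicate 1 of all 4 groups.

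The 2 libraries of 2C::GFP+/SA stood apart in the family and in some of its companions. The Usp17l sum was 2.44 times higher in replicate 1 than in replicate 2. Zscan4c, which encodes a zinc finger protein of the 2-cell stage, had 1699 and 637 CPM there, a 2.67-fold difference, and Zfp352, another 2-cell zinc finger gene, 187 and 79.8 CPM, a 2.34-fold difference. Duxf3, whose product activates 2-cell genes, had 71.6 and 76.6 CPM, a 1.07-fold difference in the other direction. Duxf3 had 4.71 and 4.99 CPM in untreated 2C::GFP+ and 9.24 and 13.4 with SGC0946. From 2C::GFP+ to 2C::GFP+/SA it rose by 3.94 ± 0.24 (log2, SE, edgeR adjusted p = 8.38e-07), where the members had SEs of 0.46 to 0.79. Against 2C::GFP+/SGC, Duxf3 was called (2.73 ± 0.23, edgeR adjusted p = 2.24e-05), as was Zfp352 (2.79 ± 0.44, adjusted p = 0.0102), and Zscan4c was not (1.68 ± 0.52, adjusted p = 0.104). Whether these genes differ from the members was not tested.

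**Figure D4:**
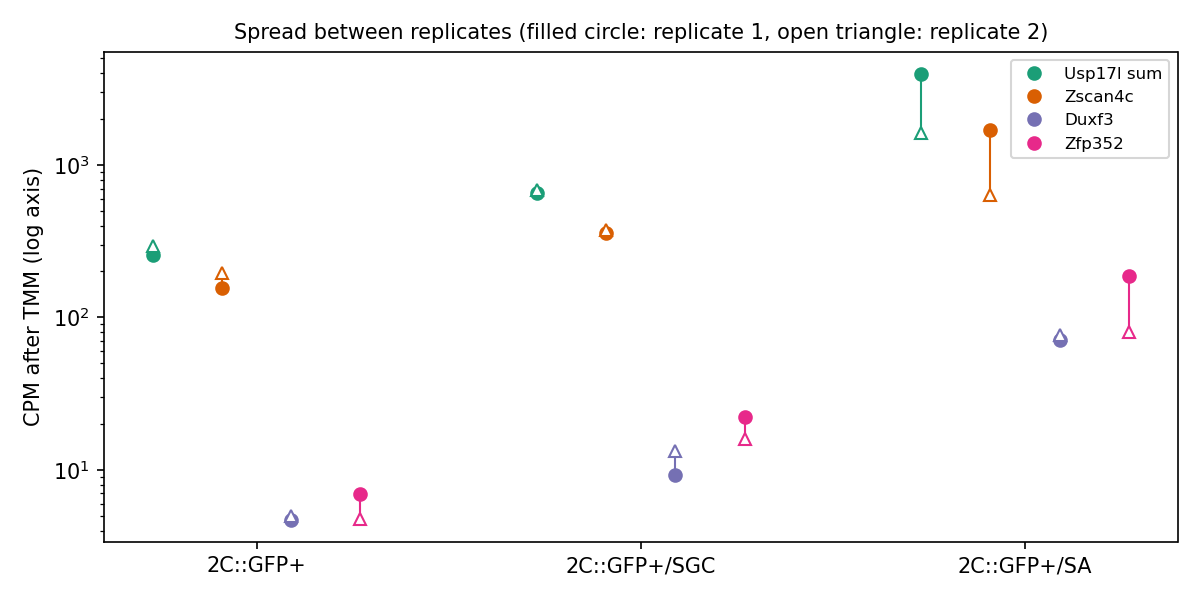
Level of the Usp17l sum, Zscan4c, Duxf3 and Zfp352 in CPM after TMM (log axis) in the 2C::GFP+ groups, with lines joining replicate 1 (filled circle) to replicate 2 (open triangle). In 2C::GFP+/SA the replicates of the Usp17l sum lie 2.44-fold apart and those of Duxf3 1.07-fold.

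Among genes with a name of their own, the 5 whose level most resembled the Usp17l sum over the 8 libraries, by Pearson correlation of log2 CPM and without a test, were Zscan4-ps3 (0.9982), Pramef25 (0.9976), Chrm3 (0.9976), Kdm4dl (0.9975) and Vmn1r88 (0.9965). Vmn1r88 shared 18 stretches of 31 bases with the members, and the part of this in its values was not tested. Predicted gene models took the higher places, Gm12800 first with 0.9992. Zscan4c ranked 68 with 0.9924, Zfp352 218 with 0.9781 and Duxf3 398 with 0.966. Zscan4-ps3 had 0.765 and 2.77 CPM in mESC and 2048 and 734 CPM in 2C::GFP+/SA, which is the replicate pattern of the family.

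Among the other ubiquitin-specific proteases, calls went both ways. Of 50 such genes 49 were tested. Against mESC, 2C::GFP+ had 6 called higher and 6 lower (9.12% of all genes were called lower), and 2C::GFP+/SA had 4 higher and 10 lower against 2C::GFP+ (13.8% of all lower), with medians of -0.07 and -0.14 (log2) against 0.04 and 0.01 over all tested genes. None was called for SGC0946 alone, by edgeR at an adjusted p under 0.05. Between 2C::GFP+/SA and 2C::GFP+/SGC 3 were called higher and 7 lower (8.18% of all lower), and between 2C::GFP+/SA and mESC 9 higher and 15 lower (20.1% of all lower). Calls either way covered 24.3% of all genes for 2C::GFP+ against mESC. For 2C::GFP+/SA they covered 28.7% against 2C::GFP+, 16.1% against 2C::GFP+/SGC and 45.1% against mESC. The share of the list called either way was near that of all genes each time. Usp46, whose enzyme removes ubiquitin from histones and other proteins, went from 46 ± 3.68 CPM (SD, n = 2) in mESC through 27.4 ± 8.11 in 2C::GFP+ and 18.6 ± 4.66 with SGC0946 to 7.26 ± 0.737 with the full cocktail, and fell by 1.94 ± 0.24 on the log2 scale from 2C::GFP+ to 2C::GFP+/SA (edgeR adjusted p = 8.11e-05). Cyld, which encodes a brake on NF-kB signalling, rose from 23.1 ± 1.33 to 69.9 ± 14.6 CPM over the same step (1.60 ± 0.17, adjusted p = 2.94e-05). Usp53 also rose (0.79 ± 0.16, edgeR adjusted p = 0.00265), and Usp28 fell by 0.89 ± 0.13 (adjusted p = 0.000285). In 2C::GFP+ against mESC, Usp44 (1.66 ± 0.23, edgeR adjusted p = 0.000168) and Usp11 (1.35 ± 0.17, adjusted p = 8.06e-05) were higher and Usp24 was lower (-0.82 ± 0.15, adjusted p = 0.00116). Usp26, picked out here after its values were seen, changed by nearly as much as the members in the first comparison: it had 0.365 ± 0.226 CPM in mESC, 22.3 ± 10.2 in untreated 2C::GFP+, 60.5 ± 35.6 with SGC0946 and 40.2 ± 8.80 with the full cocktail. It rose by 5.59 ± 0.74 (log2, edgeR adjusted p = 0.00441) from mESC to 2C::GFP+. Its other steps did not pass, with 1.45 ± 0.56 for SGC0946 alone (edgeR adjusted p = 0.493) and 0.86 ± 0.55 from 2C::GFP+ to 2C::GFP+/SA (adjusted p = 0.316).

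The enzymes that write and erase ubiquitin on histones H2A and H2B were of interest because H2B ubiquitin stimulates DOT1L, the target of SGC0946. Of 26 genes, 1 was called higher and 3 lower in 2C::GFP+ against mESC, 0 in 2C::GFP+/SGC against 2C::GFP+, and 1 higher and 6 lower in 2C::GFP+/SA against 2C::GFP+. Calls either way covered 24.3%, 0% and 28.7% of all genes in these comparisons, so the share of the list was near or below that of all genes. Beside Usp46, Usp49, an H2B deubiquitinase, went from 12.2 ± 2.87 CPM in 2C::GFP+ to 4.49 ± 0.569 in 2C::GFP+/SA (-1.41 ± 0.26, edgeR adjusted p = 0.00115). Eny2, a subunit of the SAGA deubiquitinase module, was the gene called higher there (0.45 ± 0.16, adjusted p = 0.0495). Dot1l itself had 194 ± 5.34 CPM in 2C::GFP+ and 246 ± 32.9 in 2C::GFP+/SA and was not called (adjusted p = 0.0957). The 2 lists share 12 genes, and of the 6 genes of this list called lower in 2C::GFP+/SA against 2C::GFP+ 5 are also counted in the other.

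A list of 8 genes encodes proteins reported as substrates of USP17 or DUB3. From 2C::GFP+ to 2C::GFP+/SA 1 was called higher, 1 lower and 6 not, a share near the 28.7% of all genes called either way. Snai1, a transcriptional repressor, went from 7.96 ± 0.0841 CPM in untreated 2C::GFP+ and 15.5 ± 2.04 with SGC0946 to 150.3 ± 68.6 in 2C::GFP+/SA (4.24 ± 0.30, edgeR adjusted p = 1.58e-05). Cdc25a, a phosphatase that drives the cell cycle, went from 125 ± 13 to 76.1 ± 17.9 CPM (-0.72 ± 0.16, adjusted p = 0.00413). These are messages, and substrate protein was not measured.

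Of 17 genes for receptors and transducers of the cytokines that first defined the family, or that were used here, 13 were tested. In 2C::GFP+ against mESC 1 was called higher and 7 lower (15.2% and 9.12% of all genes), and in 2C::GFP+/SA against 2C::GFP+ 1 higher and 5 lower (14.9% and 13.8% of all genes). Il6ra, the receptor chain that binds IL6, had 31.4 ± 1.74 CPM in mESC and was called lower in 2C::GFP+ (-1.82 ± 0.35, edgeR adjusted p = 0.00713). In the second comparison it rose from 8.81 ± 1.04 to 73.4 ± 37.6 CPM (3.06 ± 0.37, edgeR adjusted p = 0.000637). Il6st, the signalling chain shared by the receptors of IL6 and LIF, fell by 1.75 ± 0.14 (edgeR adjusted p = 3.93e-06) and Lifr, the other LIF receptor chain, by 1.14 ± 0.17 (adjusted p = 0.00029). Jak3 had 135 ± 40.4 CPM in mESC and 35.8 ± 1.63 in 2C::GFP+ (-1.92 ± 0.31, edgeR adjusted p = 0.00375).

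The protein-coding genes nearest to the members had few or no counts, but the wider span held expressed genes. The nearest annotated protein-coding genes, up to 2 on each side of every member, were 12 olfactory receptor genes, of which 5 had no count in any library. The highest had 16 counts over all 8 libraries, and none was tested. In the span of the 5 members with 1e+05 bases added on each side there were 136 other rows, 87 of them without a count and 12 tested. Of these 12, 4 were called higher in 2C::GFP+ against mESC (15.2% of all genes), 4 in 2C::GFP+/SA against 2C::GFP+ (14.9% of all genes) and 0 lower in either. Trim6 and Trim30d were among those called in the first comparison and Trim30a among those in the second. Trim6 had a mean of 193.8 CPM in mESC and 301.7 in 2C::GFP+/SA.

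A group of 3 rows there followed the family and was picked out after their values were seen. Gm25774, a predicted miRNA on the strand of Usp17lc and within its span (103415806 to 103415926), had 0 and 0 counts in mESC, 104 and 15 in untreated 2C::GFP+, 412 and 23 with SGC0946 and 1845 and 71 with the full cocktail. Gm25171 and Gm23550, predicted miRNAs upstream of Usp17ld, had 0 counts in both mESC libraries, and 821 and 35 counts and 69 and 3 counts in 2C::GFP+/SA. The source of these counts was not tested. Gm5053, the pseudogene on chromosome 7 (108527397 to 108529074) that shares sequence with the family, had 0.0291 and 0.205 CPM in mESC, 2.31 and 2.73 in untreated 2C::GFP+, 5.28 and 7.14 with SGC0946 and 20.5 and 16.5 with the full cocktail. It was called in the contrast where 4 of the members were not, that of 2C::GFP+/SA against 2C::GFP+/SGC (1.60 ± 0.37, edgeR adjusted p = 0.0103), and its 2C::GFP+/SA replicates lay close together.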

How the data were processed

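Polyadenylated RNA was sequenced in 8 libraries. The authors deposited a table of whole-number read counts, not normalized, and a table of TPM values. The submitters' processing notes list featureCounts 2.0.0, STAR 2.7.4a, Trim Galore 0.6.5 and FastQC 0.11.9, with GRCm38 and mm10 as builds. No source used here gives the annotation, the strand setting or the treatment of multiply mapping reads. The ratios of gene lengths implied by the deposited TPM equal the union-exon lengths of GENCODE M21 for the 5 genes.

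All 8 columns were used (0 left out). The columns named KOSR, a name no label holds, were taken as untreated 2C::GFP+ by elimination. Of the identifiers, 55480 were found in GENCODE M21 and 93 were not. edgeR 4.0.16 (filterByExpr, TMM, robust quasi-likelihood fit of 4 groups over all 8 libraries, 4 residual degrees of freedom) tested 20608 genes, with two-sided p-values adjusted by Benjamini-Hochberg in each of 5 comparisons. 95% intervals use each gene's own degrees of freedom. The SE is the log2 fold change over the square root of F. DESeq2 1.42.0, limma 3.58.1, other filters, a replicate block and left-out libraries were alternatives. Coding sequences were aligned with mafft 7.526. A depth of 3 counts was taken as the floor.

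From each list and comparison, up to 2 called genes in each direction by smallest adjusted p could be named, with the 5 most alike genes that are not predicted models, neighbours, Duxf3, Zscan4c and Zfp352. Members and lists were chosen with earlier results of these data known.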

Additional observations from a re-analysis of the deposited data

How the results depend on the processing

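No member changed direction under any alternative. In 2C::GFP+ against mESC, 5 of the 5 members were called in the fits that kept all libraries, and 2 to 5 when each library was left out in turn. In 2C::GFP+/SA against mESC it was 5 throughout. In 2C::GFP+/SGC against 2C::GFP+ the count was 0, but 5 with only the 4 libraries compared, and 0 to 1 with a library left out (1 without either library of 2C::GFP+/SA). In 2C::GFP+/SA against 2C::GFP+ it was 5, but 2 with no low-count filter, 4 with limma on log2(TPM + 0.1), 3 with a replicate block, and 0 to 5 with a library left out. In 2C::GFP+/SA against 2C::GFP+/SGC it was 1, but 3 with DESeq2, 3 with a filter of 1 CPM in 2 libraries, 4 with limma on log2(TPM + 1), 0 with limma on log2(TPM + 0.1), 2 with only the 4 libraries compared, 0 with a replicate block, and 0 to 2 with a library left out. The cause was not tested.

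The log2 ratio of the summed level ran from 5.03 to 7.16 in 2C::GFP+ against mESC and from 1.18 to 1.38 in 2C::GFP+/SGC against 2C::GFP+, from 2.46 to 3.95 in 2C::GFP+/SA against 2C::GFP+, from 1.25 to 2.60 in 2C::GFP+/SA against 2C::GFP+/SGC and from 7.59 to 11.01 in 2C::GFP+/SA against mESC, over other scalings, single replicates and left-out libraries (the last chosen after seeing the data). Over all genes, 2C::GFP+/SGC against 2C::GFP+ gave 0 calls, but 288 with DESeq2, 499 with no filter, 326 with the 4 libraries, 284 with a replicate block and 0 to 431 with a library left out (431 without 2C::GFP+/SA replicate 2). 2C::GFP+ against mESC gave 5016, and 2924 with limma on log2(TPM + 1) and as few as 2872 with a library left out (mESC replicate 1). 2C::GFP+/SA against 2C::GFP+ gave 5910, and as few as 2890 (without 2C::GFP+ replicate 1). 2C::GFP+/SA against 2C::GFP+/SGC gave 3319, and 2210 with the 4 libraries and as few as 1207 (without 2C::GFP+/SGC replicate 1).

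The labels do not say that same-numbered libraries share a culture or a day. The correlations of their deviations between groups were 0.0411 to 0.142, and the number also marks depth, so the single-replicate ratios above are values within depth. With the replicate block the calls over all genes were 6070, 284, 6830, 4406 and 10060, against 5016, 0, 5910, 3319 and 9288 without it (2C::GFP+ against mESC, SGC0946 alone, then 2C::GFP+/SA against 2C::GFP+, against 2C::GFP+/SGC and against mESC).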
